A study of Mus musculus with 12 samples.

Results

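The genes described here are 10 immediate early and activity-regulated genes of neurons, namely Fos, Fosb, Junb, Egr1, Egr3, Nr4a1, Nr4a2, Arc, Npas4 and Bdnf, in a count table of long non-coding RNAs from the hippocampus and cerebral cortex of 5 × FAD and WT mice. Members were the rows of the table whose transcript identifier belongs to one of these genes by its GENCODE M21 gene name, so no measured value chose a row. The list of genes itself was chosen with earlier results of these data known. The rule found 7 rows among the 48033 of the table. They belong to 4 of the 10 genes, with 3 rows for Fos, 2 for Nr4a2 and 1 each for Fosb and Junb. For Egr1, Egr3, Nr4a1, Arc, Npas4 and Bdnf no row was found, and their transcripts were not analysed here. The mice were 7 months old and of the C57BL/6J strain, and the groups were the hippocampus and the cerebral cortex of non-transgenic WT mice and of 5 × FAD mice, with 3 libraries in each of the 4 groups. The 5 × FAD mouse carries human transgenes with familial Alzheimer's disease mutations under the control of mouse Thy1 sequences, which are active in neurons. All mice were killed by cervical dislocation and the tissue was frozen in liquid nitrogen. The study's methods describe a Morris water maze test before death, but name different cohorts for the maze and for the RNA, so whether these mice had been in the maze is not clear from them. The interval between the last handling of a mouse and its death, to which genes of this kind are sensitive, is not given in the sources used here.

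Immediate early genes are transcribed within minutes of synaptic activity, because the proteins that switch them on are already present in the resting neuron. Calcium entry activates kinases, which modify factors such as CREB, SRF and MEF2 at the promoters, and no new protein has to be made first. Fos, Fosb and Junb encode subunits of the transcription factor AP-1, Egr1 and Egr3 are zinc finger factors, Nr4a1 and Nr4a2 are orphan nuclear receptors, and Npas4 is a neuron-specific factor. Arc acts at the synapse itself and Bdnf encodes a secreted neurotrophin. In the hippocampus and cortex these genes are widely used as marks of recently active neurons.

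The rows were not the messenger RNAs of these genes but annotated transcripts without a coding sequence. All of them except the Junb row share exon bases with coding transcripts. The most abundant Fos row, ENSMUST00000136122, held 85.7% of the counts of Fos. It lies on chromosome 12 of GRCm38 from 85474691 to 85476007 on the plus strand, begins inside the first intron of the coding transcript, and has 69.3% of its 795 bases in exons of the coding transcript. Of the other Fos rows, ENSMUST00000140525 held 9.1% and ENSMUST00000134311 5.2% of the Fos counts. The Fosb row, ENSMUST00000208230, is a retained-intron transcript on the minus strand of chromosome 7 from 19306416 to 19310044, with 32.2% of its 3629 bases in coding-transcript exons and the other 2461 bases in introns. The Nr4a2 row ENSMUST00000140165, on the minus strand of chromosome 2 from 57112003 to 57115038, held 91.5% of the Nr4a2 counts and has 80.3% of its 1099 bases in exons of coding transcripts, while ENSMUST00000128776 held 8.5%. The Junb row, ENSMUST00000209372, lies on chromosome 8 from 84974484 to 84976542 on the minus strand, downstream of the coding transcript, and shares 0 of its 492 bases with it. Except for Junb, reads in the shared exons could come from the mRNA or from the row. How the counting divided them is not given in the sources used here. Whether reads in the intron stretches came from the row or from unspliced RNA of the gene was not tested. A gene sum below is the sum of the rows of a gene, and is therefore not the level of its mRNA.

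**Figure D1:**
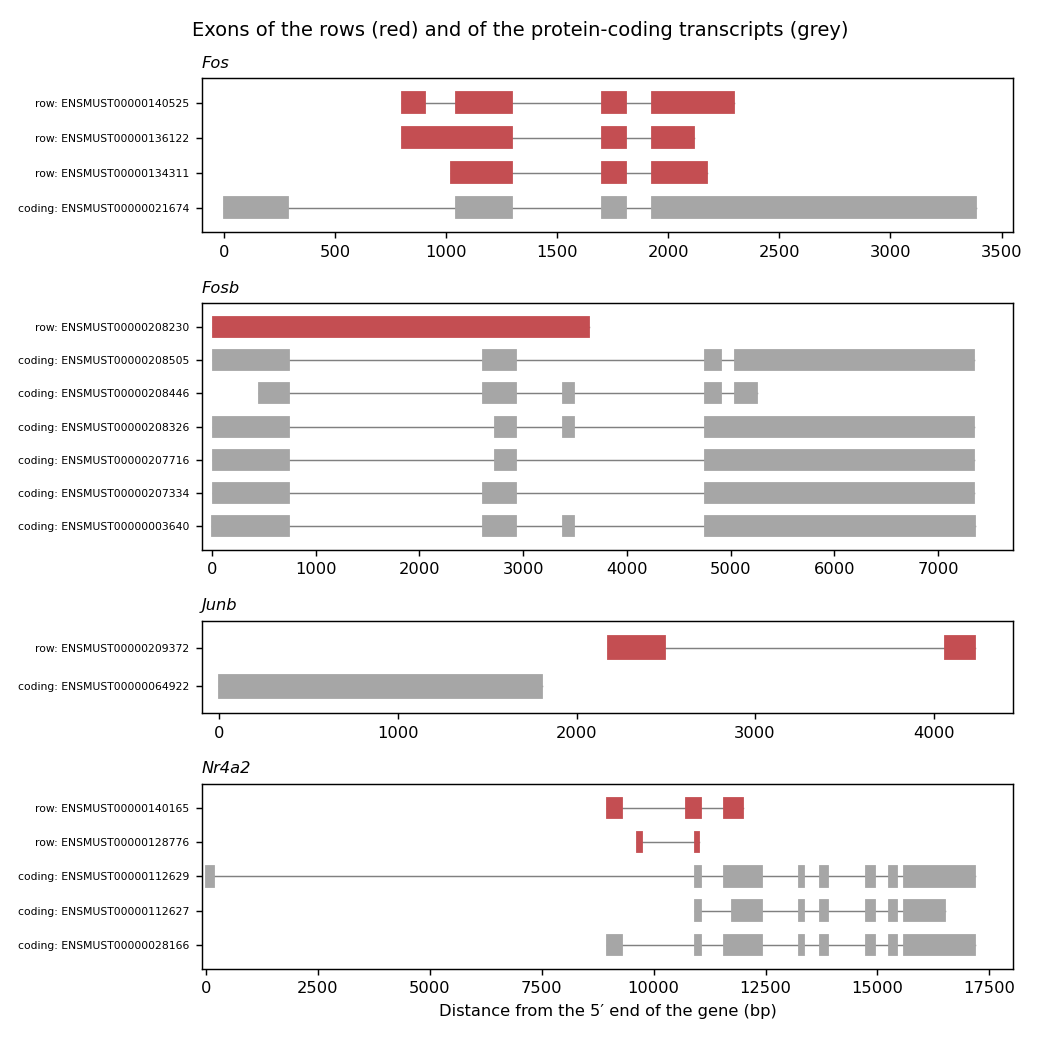
Exons of the 7 rows (red boxes) and of the protein-coding transcripts (grey boxes) of Fos, Fosb, Junb and Nr4a2, with distance from the 5′ end of the gene in bp on the x axis and introns as lines. The Fosb row runs through the introns of the coding transcripts, whereas the Junb row lies past the 3′ end of the coding transcript.

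For Fos and Nr4a2, the stretches that set the main row apart from the mRNA are shown here, since these bases lie outside the exons of the coding transcripts. Parts of the Fos stretch are shared with the other Fos rows, namely the first 105 bases with ENSMUST00000140525 and the last 24 with ENSMUST00000134311. They are from GENCODE M21 transcripts on GRCm38, 5′ to 3′ on the strand of the gene. Capitals mark AG where the stretch runs directly into a coding-transcript exon, which is the end of the intron that the mRNA has lost.
Fos ENSMUST00000136122, chr12:85474691-85474934: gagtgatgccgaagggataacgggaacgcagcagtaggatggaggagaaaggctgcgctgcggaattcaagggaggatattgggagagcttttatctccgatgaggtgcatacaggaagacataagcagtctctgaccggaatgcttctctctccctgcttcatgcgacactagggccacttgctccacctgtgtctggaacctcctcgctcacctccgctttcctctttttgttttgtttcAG
Nr4a2 ENSMUST00000140165, chr2:57113073-57113289: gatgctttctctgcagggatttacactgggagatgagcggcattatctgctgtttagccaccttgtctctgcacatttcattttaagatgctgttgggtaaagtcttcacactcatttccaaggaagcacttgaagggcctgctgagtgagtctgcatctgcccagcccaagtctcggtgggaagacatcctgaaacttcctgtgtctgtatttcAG

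The promoters of the members that were tested are shown next, as the 250 bases before the RefSeq start of each gene on GRCm38.p6. Capitals mark TGACG, the core of the cAMP response element bound by CREB, on either strand (CGTCA on the other).
Fos, chr12:85473640-85473889: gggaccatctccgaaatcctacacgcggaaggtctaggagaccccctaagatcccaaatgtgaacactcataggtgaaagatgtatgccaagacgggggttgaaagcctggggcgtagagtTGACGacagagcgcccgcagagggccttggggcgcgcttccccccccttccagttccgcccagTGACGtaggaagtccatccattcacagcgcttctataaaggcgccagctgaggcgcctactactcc
Fosb, chr7:19310046-19310295: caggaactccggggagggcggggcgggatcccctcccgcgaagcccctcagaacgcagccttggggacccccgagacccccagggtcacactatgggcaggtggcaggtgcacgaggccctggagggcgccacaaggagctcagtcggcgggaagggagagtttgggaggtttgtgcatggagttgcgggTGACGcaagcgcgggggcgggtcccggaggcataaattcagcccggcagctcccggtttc
Nr4a2, chr2:57124004-57124253: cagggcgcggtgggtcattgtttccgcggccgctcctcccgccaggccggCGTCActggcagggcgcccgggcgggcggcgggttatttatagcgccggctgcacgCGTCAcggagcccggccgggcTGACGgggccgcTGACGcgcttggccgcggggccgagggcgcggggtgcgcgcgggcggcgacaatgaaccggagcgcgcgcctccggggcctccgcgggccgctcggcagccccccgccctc
The Fos promoter held 2 such matches, at -129 and -66 from the start, Fosb held 1 at -60 and Nr4a2 held 4, and the promoter of Junb held 1 at -106. The same letters occurred in 17.8% of the 32851 promoters of the RefSeq table, so a match alone is common. The full element TGACGTCA, in 1.55% of all promoters, the AP-1 motif TGANTCA, in 6.75%, and the serum response element, in 1.47%, were in none of these 4 windows on either strand. A match or its absence describes only the letters of these windows. The windows of Fos, Nr4a2 and Junb do not adjoin the first base of the counted rows. The main row begins at 85474691 for Fos and at 57115038 for Nr4a2, and the Junb row at 84976542. The Nr4a2 position is also the first base of its coding transcript ENSMUST00000028166, and the bases before it were not examined.

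Summed over rows, each library held between 3517967 and 5014389 counts, so that 3 counts, taken as the floor of detection, stood for 0.598 to 0.853 CPM (counts scaled to library size). CPM below are scaled by the trimmed mean of M values (TMM). The labels of region were borne out by the sums of markers. The summed CPM of the 4 hippocampal marker genes with a row (of 7 listed) was 109 to 127 in the hippocampus and 26.7 to 49.6 in the cortex. Zbtb20 carried most of this sum, at 106.3 to 123.2 against 26.11 to 47.95 CPM. Lct and Dsp were at most 2.072 CPM, and Nr3c2 overlapped. The 6 cortical marker genes with a row summed to 79.18 to 111.0 CPM in the hippocampus and 112.9 to 185.4 CPM in the cortex. Singly, only Rorb did not overlap, at 4.287 to 8.421 against 11.46 to 15.21 CPM, while Tbr1, Cux1, Cux2, Lamp5 and Rspo1 did. For 5 × FAD 3 the cortical sums were close, at 111.0 and 112.9 CPM. The library labelled 5 × FAD 3 went against its label in both regions. Thy1, whose elements drive the transgenes, stood at 107 and 143 CPM in the hippocampus libraries labelled 5 × FAD 1 and 2 and at 124 in both of their cortex libraries, but at 38.6 and 35.7 CPM in 5 × FAD 3, against 29.8 to 46.7 in WT. Trem2, a receptor of microglia, was at 180 to 230 CPM in 5 × FAD 1 and 2, at 40.1 and 19.8 in 5 × FAD 3 and at 19.2 to 53.2 in WT. Xist, the RNA of the inactive X chromosome, reached 7676 CPM or more in the 4 libraries of 5 × FAD 1 and 2 and at most 5.64 in the other 8, which alone held counts of the Y-linked gene Kdm5d. This differs from the composition of both sexes that the study gives for each group. Sex and genotype can therefore not be told apart without 5 × FAD 3. Keeping 5 × FAD 3 does not separate them either, because it alone among those labelled 5 × FAD is male, and its Thy1 and Trem2 were at the WT level. The log2 fold changes of the tested gene sums are given below with and without that library, except those between the 5 × FAD regions. Whether separate numbers are separate mice in each region rests on the study's description, and p-values measure the spread between these samples. In bulk tissue, fewer cells that express a gene and less RNA per cell cannot be told apart.

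Fos, the best known of the activity-induced AP-1 subunits, was highest in the cortex of WT mice. Its row ENSMUST00000136122 had 221, 138 and 104 counts in the WT cortex, and the 5 × FAD cortex had 74, 62 and 95. WT hippocampus libraries held 48, 61 and 32 counts and those of 5 × FAD 81, 30 and 76. All 3 libraries of the WT cortex thus lay above the other 9 libraries. The share of all rows with such a pattern was not counted. The row ENSMUST00000140525 had 10 counts in each WT cortex library and 7, 7 and 13 in the 5 × FAD cortex, and 12, 7 and 11 in the WT hippocampus against 8, 0 and 13 in the 5 × FAD hippocampus. The third row, ENSMUST00000134311, stayed at 4 to 6 counts in every library and did not pass the filter on low counts. The pattern of Fos across the groups was therefore mostly that of ENSMUST00000136122.

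Summed per gene, Fos was at 41.0 ± 12.5 CPM in the WT cortex (SD, n = 3) and at 21.4 ± 3.74 CPM in the 5 × FAD cortex. In the hippocampus the Fos sum was 13.3 ± 2.31 CPM in WT and 18.3 ± 8.90 CPM in 5 × FAD. In this order of the means, from the WT cortex through the 5 × FAD cortex and the 5 × FAD hippocampus to the WT hippocampus, the ranges of the first 2 groups did not overlap and those of the later neighbours did. The spread in the 5 × FAD hippocampus came from the library of replicate 2, at 8.06 CPM, against 23.9 and 23.0 in the other 2.

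Fosb, a close relative of Fos whose truncated product accumulates with repeated activity, followed the same order of groups. Its row had 129, 165 and 139 counts in the WT cortex and 73, 73 and 106 in the 5 × FAD cortex. WT hippocampus libraries held 85, 82 and 53 counts of it and those of 5 × FAD 116, 37 and 72. The lowest library of the WT cortex again lay above every library of the other groups, by 30.2 against at most 29.2 CPM. How common this is among all gene sums was not counted. The group means of Fosb were 35.3 ± 5.07 CPM in the WT cortex (SD, n = 3), 19.9 ± 4.01 in the 5 × FAD cortex, 18.4 ± 10.4 in the 5 × FAD hippocampus and 15.8 ± 3.32 in the WT hippocampus. Replicate 2 of the 5 × FAD hippocampus was the lowest of all 12 libraries for Fosb too, at 8.52 CPM.

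Nr4a2, an orphan nuclear receptor needed for dopamine neurons and also induced by activity in the forebrain, did not follow Fos and Fosb. Its main row, ENSMUST00000140165, had 336, 76 and 66 counts in the WT hippocampus and 104, 22 and 72 in the 5 × FAD hippocampus. The same row had 27, 36 and 47 counts in the WT cortex, and the 5 × FAD cortex had 95, 24 and 83. The WT hippocampus of replicate 1 stood far above all other libraries. The row ENSMUST00000128776 had 11, 16 and 9 counts in the WT hippocampus, 10, 6 and 9 in the 5 × FAD hippocampus, 4, 3 and 9 in the WT cortex and 10, 1 and 4 in the 5 × FAD cortex. Replicate 1 of the WT hippocampus did not stand out for that row. The summed level was 36.7 ± 32.2 CPM in the WT hippocampus (SD, n = 3), 18.3 ± 11.2 in the 5 × FAD hippocampus, 16.5 ± 8.70 in the 5 × FAD cortex and 10.6 ± 4.90 in the WT cortex, and the ranges of all neighbours in this order overlapped.

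Junb, which encodes a partner of Fos in AP-1, was close to the floor of detection. Its row had 5, 0 and 7 counts in the WT hippocampus, 7, 2 and 2 in the 5 × FAD hippocampus, 8, 4 and 4 in the WT cortex and 11, 0 and 0 in the 5 × FAD cortex. It did not pass the filter in any comparison, so 3 of the 4 gene sums were tested, and differences of Junb were not detectable at this depth.

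**Figure D2:**
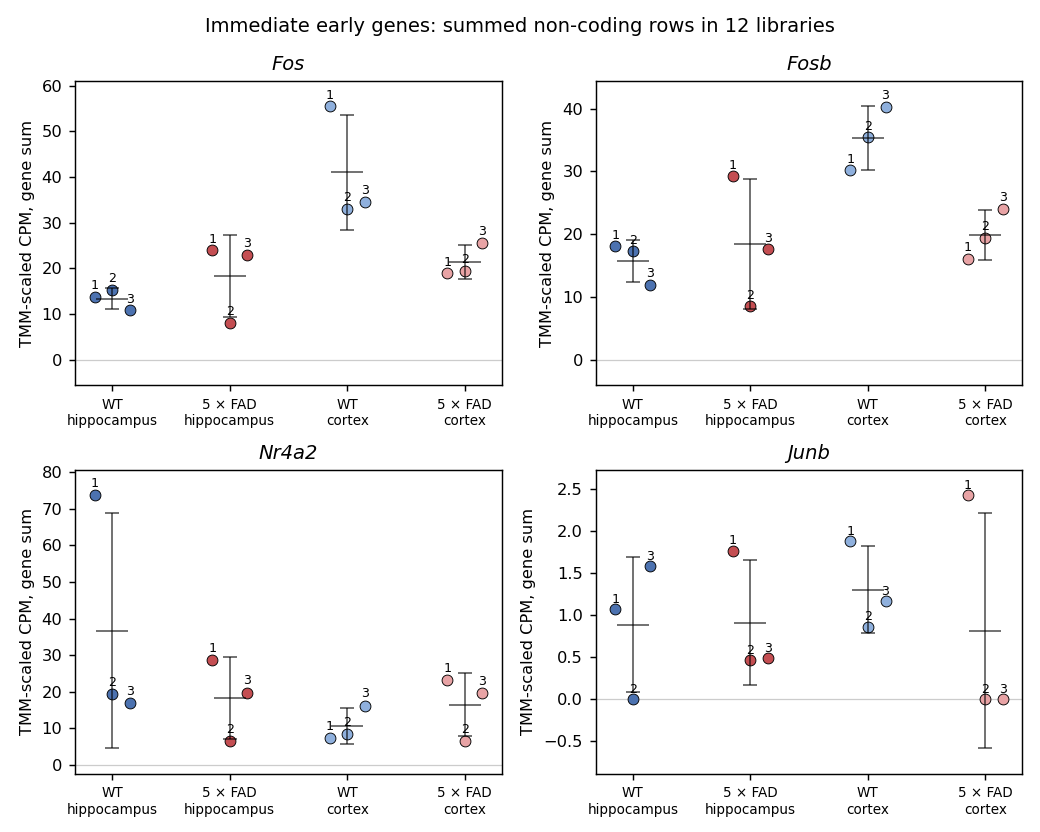
TMM-scaled CPM of the gene sums of Fos, Fosb, Nr4a2 and Junb (y axes) in the 4 groups, where points are libraries with their replicate number, the long dash is the mean and the bars are the SD of 3 libraries. The 3 WT cortex libraries lie above all others for Fos and Fosb, and replicate 1 of the WT hippocampus stands apart for Nr4a2. How common the first pattern is among all gene sums was not counted.

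The comparison of 5 × FAD with WT mice asks whether the genotype went with a different level of these transcripts in each region. In the cortex, Fos and Fosb were lower in all 3 libraries labelled 5 × FAD than in all 3 WT libraries. Over all gene sums tested, 6.73% were lower without overlap in this way. The log2 fold change of the Fos sum was -0.94 (SE 0.27, adjusted p = 0.722 by the quasi-likelihood test of edgeR, Benjamini-Hochberg adjusted over all gene sums). For Fosb it was -0.82 (SE 0.22, adjusted p = 0.713 by the same edgeR test). Neither difference passed the correction for all genes, and over the 11 alternative settings the adjusted p from edgeR or DESeq2 lay between 0.272 and 0.892 for Fos and between 0.265 and 0.892 for Fosb. The direction was negative in each of these settings for both genes. Without the library labelled 5 × FAD 3, the log2 fold change was -1.10 (SE 0.30) for Fos and -0.99 (SE 0.22) for Fosb, with adjusted p values of 0.621 and 0.453 from edgeR. Without WT replicate 1, the highest Fos library, that of Fos was -0.65 (SE 0.22, adjusted p = 0.805, edgeR). Nr4a2 had a log2 fold change of 0.66 in the cortex (SE 0.51, adjusted p = 0.835, edgeR), with overlapping groups, and 0.52 (SE 0.59) without 5 × FAD 3.

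Markers of other cell types were read beside this difference. The summed level of the 4 oligodendrocyte marker genes Mbp, Mag, Cnp and Mobp was 383 to 436 CPM in the 5 × FAD cortex and 217 to 358 CPM in the WT cortex, without overlap. Cnp carried most of this sum, at 300.4 to 344 against 159 to 276 CPM, and Mbp, Mag and Mobp each overlapped. The part of Cnp in the difference of Fos and Fosb was not tested. The 7 neuronal markers summed to 1366 to 3173 CPM in the 5 × FAD cortex and to 1651 to 2828 CPM in the WT cortex, with overlap. Among them Slc17a7 alone did not overlap, at 244.8 to 305.2 CPM in the 5 × FAD cortex against 348.8 to 398.1 CPM in the WT cortex. Gad1 made the sum uneven, since it ran from 31.34 to 1555 CPM between cortex libraries. The 5 astrocyte markers with a row overlapped as well in their sum, at 965 to 1523 against 957 to 1574 CPM, although Gja1 among them was at 21.9 to 26.0 against 12.2 to 16.9 CPM. The 4 endothelial ones lay at 74.9 to 80.6 against 61.2 to 74.2 CPM in sum, without overlap, and each of the 4 overlapped singly. The parts of Slc17a7, of Gja1 and of the endothelial sum were not tested either. Of the 8 microglial markers only Trem2 and Itgax had a row, and Itgax was at most 1.10 CPM in any library.

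In the hippocampus, the differences between the genotypes were smaller than the spread between libraries. The log2 fold change was 0.47 for Fos (SE 0.42, adjusted p = 0.741, edgeR), 0.24 for Fosb (SE 0.43, adjusted p = 0.892) and -0.99 for Nr4a2 (SE 0.71, adjusted p = 0.698). Without the library labelled 5 × FAD 3 these values were 0.26, 0.26 and -1.06. The value of Nr4a2 rested on the high library of the WT hippocampus, since it became 0.02 (SE 0.58) without WT replicate 1. That of Fosb turned to -0.25 (SE 0.39) without 5 × FAD replicate 1, and that of Fos rose to 0.83 (SE 0.25, adjusted p = 0.383, edgeR) without 5 × FAD replicate 2. The 4 oligodendrocyte markers summed to 367 to 479 CPM in the 5 × FAD and 229 to 322 CPM in the WT hippocampus, and the 5 astrocyte markers to 528 to 1187 against 1410 to 1536 CPM. Neither sum overlapped between the genotypes, but in each it was a single gene that did not overlap, with Cnp at 278 to 420 against 162 to 249 CPM and Slc1a3 at 416 to 1040 against 1286 to 1427 CPM. The 7 neuronal markers overlapped in sum, at 1783 to 7266 CPM in 5 × FAD and 1537 to 3440 CPM in WT. Gad1 and Slc17a7 made that sum uneven. Among the neuronal markers Map2 alone did not overlap, at 330.5 to 375.9 against 428.7 to 476.1 CPM. The 4 endothelial markers overlapped in sum, although Flt1 among them was at 7.558 to 12.66 against 13.47 to 14.88 CPM. The part of Cnp, Slc1a3, Map2 and Flt1 in the values of any other gene of the hippocampus was not tested.

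Counted over the members, 0 of the 3 gene sums tested passed an adjusted p of 0.05 in either region, where 2 of 11404 gene sums in the cortex (0.0175%) and 6 of 11343 in the hippocampus (0.0529%) passed. At an unadjusted p under 0.05 by edgeR there were 2 members in the cortex and 0 in the hippocampus, beside 6.67% and 8.69% of all gene sums. DESeq2 also called 0 members in both. Among single rows, 0 of the 4 tested in the cortex and 0 of the 5 tested in the hippocampus passed, against 0.0545% and 0.0183% of all rows. The thresholds that the study used for its screens, an unadjusted p under 0.05 with an absolute fold change of at least 1, read here on the log2 scale, were met in the cortex by 1 member row, Fos ENSMUST00000136122 (log2 fold change -1.03, SE 0.29, adjusted p = 0.849 by edgeR). They were met by 2.61% of all rows in the cortex and 4.05% in the hippocampus, where no member row met them. No gene sum of a member met them, while 2.45% of all sums did in the cortex and 3.39% in the hippocampus. The row that met them was 1 of the 4 tested.

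The comparison of the hippocampus with the cortex, over both genotypes, asks how the regions differ in these transcripts. Fos was lower in the hippocampus by a log2 fold change of -0.92 (SE 0.26), with an adjusted p of 0.0608 from edgeR, just short of the threshold. Fosb had a log2 fold change of -0.63 (SE 0.26, adjusted p = 0.196, edgeR). Nr4a2 had one of 0.97 (SE 0.49, adjusted p = 0.304, edgeR), which was 0.46 without replicate 1 of the WT hippocampus. The call of Fos depended on the tool, because DESeq2 gave an adjusted p of 0.0132 for the same log2 fold change. That of Fosb passed without replicate 1 of the 5 × FAD hippocampus, with a log2 fold change of -0.89 and an adjusted p of 0.0412 from edgeR. Without both libraries labelled 5 × FAD 3 the values were -0.94 (SE 0.30) for Fos, -0.54 (SE 0.31) for Fosb and 1.01 (SE 0.60) for Nr4a2. By edgeR on all 12 libraries, 0 of the 3 gene sums and 0 of the 5 rows of members passed, against 6.86% of all gene sums and 2.55% of all rows, and 2 of the 3 sums had an unadjusted p under 0.05, beside 19.6% of all gene sums. The summed neuronal markers overlapped between the regions, at 1537 to 7266 CPM in the hippocampus and 1366 to 3173 CPM in the cortex. Between hippocampus libraries Gad1 ran from 17.49 to 2412 CPM and Slc17a7 from 345.9 to 3751 CPM. The overlap of the sum therefore does not show that the neuronal content of the regions was alike.

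The regional difference was also taken within each genotype. Between the WT libraries alone, Fos and Fosb did not overlap, with at most 15.4 CPM in the hippocampus against at least 33.1 in the cortex for Fos, and 18.1 against 30.2 for Fosb. Of all gene sums, 12.1% were lower in the hippocampus without overlap. The log2 fold change between the WT regions was -1.62 for Fos (SE 0.26, adjusted p = 0.0243, edgeR) and -1.16 for Fosb (SE 0.22, adjusted p = 0.037, edgeR), so that 2 of the 3 members passed in a fit in which 3.49% of all gene sums passed. Between the 5 × FAD regions the values were -0.23 (SE 0.41, adjusted p = 0.867, edgeR) and -0.12 (SE 0.43, adjusted p = 0.941, edgeR), and 0.193% of all gene sums passed. The 5 × FAD fit keeps both libraries labelled 5 × FAD 3 and was not run without them. The difference between the WT and the 5 × FAD regional effects is the interaction of region and genotype, which was tested directly.

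The interaction was positive for Fos and Fosb, meaning that the 5 × FAD minus WT difference was higher in the hippocampus than in the cortex. Its log2 value was 1.38 for Fos (SE 0.52, adjusted p = 0.666, edgeR), 1.03 for Fosb (SE 0.51, adjusted p = 0.709) and -1.68 for Nr4a2 (SE 0.97, adjusted p = 0.752). The Fos row ENSMUST00000136122 had 1.59 (SE 0.56, adjusted p = 0.661, edgeR). Without both libraries labelled 5 × FAD 3 the interaction was 1.36 (SE 0.60) for Fos, 1.25 (SE 0.62) for Fosb and -1.57 (SE 1.20) for Nr4a2. No member was called, and by edgeR the interaction was called for 0.0% of all gene sums and 0.00812% of all rows. At an unadjusted p under 0.05 it was found for 1 of the 3 member sums and 7.01% of the 12104 sums tested, and DESeq2 called 21 gene sums. A difference between WT and 5 × FAD mice in the regional effect on Fos or Fosb therefore did not pass the correction.

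**Figure D3:**
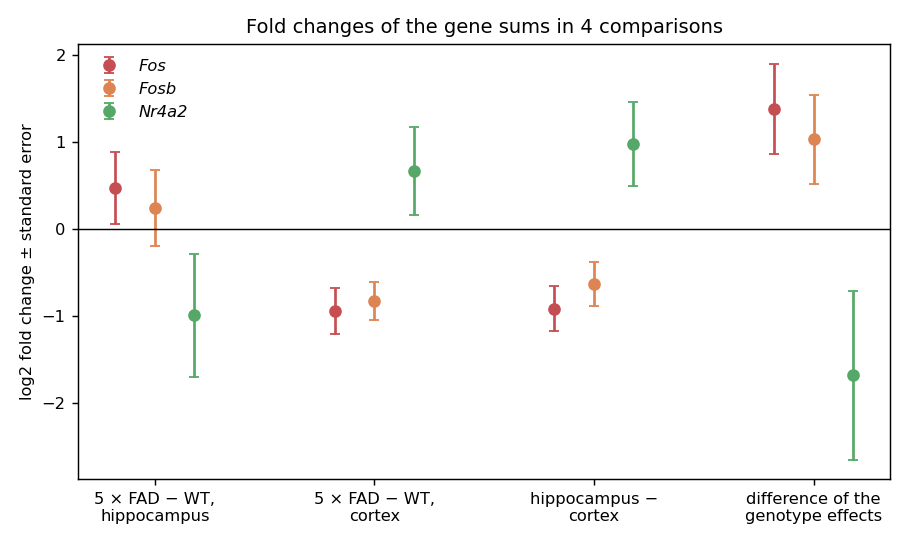
Log2 fold changes of the gene sums of Fos, Fosb and Nr4a2 (y axis) in the 4 comparisons (x axis), with bars for 1 standard error from edgeR. Fos and Fosb lie below 0 in the cortex comparison and the regional comparison, at -0.94 and -0.82 and at -0.92 and -0.63, and Nr4a2 lies on the opposite side of 0 from them in each comparison.

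Fos and Fosb varied together across libraries. Over the 12 libraries their log2 CPM had a Pearson correlation of 0.89, and 0.75 after the group means were subtracted, as a description of libraries that share their depth and tissue with both genes. The second value fell to 0.227 without replicate 2 of the 5 × FAD hippocampus, in which both genes were lowest, and was 0.919 without replicate 1 of the WT cortex. Nr4a2 had correlations of -0.188 with Fos and 0.0107 with Fosb as measured, and of 0.472 and 0.654 after the group means were subtracted. The 5 other gene sums most like the mean of the z-scores of Fos, Fosb and Nr4a2 over the 12 libraries, among 5631 with a mean of at least 100 counts, were Med8 (r = 0.881), Arhgap33 (0.851), R3hdm4 (0.846), Mir124a-1hg (0.843) and the assembled locus MSTRG.3868 (0.842). With group means subtracted they were Med8 (r = 0.97), MSTRG.15363 (0.929), Bcl7a (0.921), Plpbp (0.919) and Arhgap33 (0.908).

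**Figure D4:**
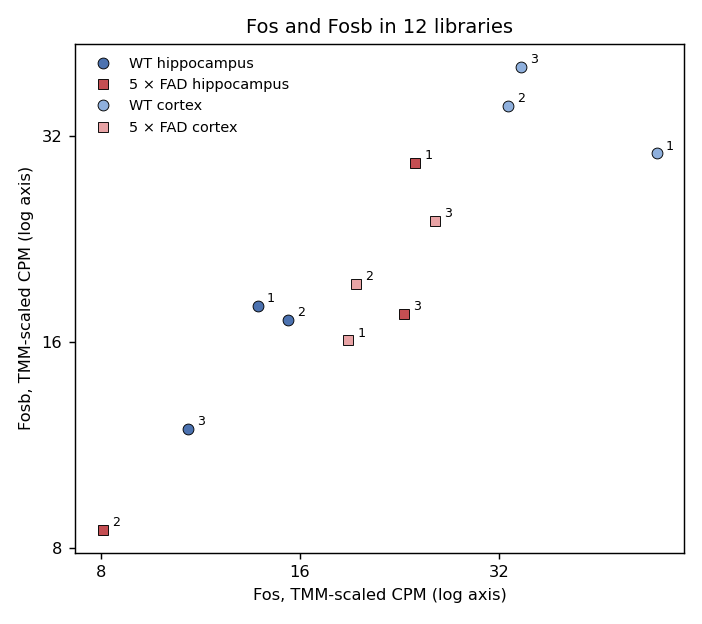
Gene sums of Fos (x axis) and Fosb (y axis) in TMM-scaled CPM on log axes, 1 point per library with its replicate number and with colour and shape for the group. The libraries run from replicate 2 of the 5 × FAD hippocampus, at 8.06 and 8.52 CPM, to the WT cortex, where Fos is at least 33.1 and Fosb at least 30.2 CPM.

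Beyond the 10 members, a list of 56 other immediate early and activity-regulated genes was read in the same comparisons. It had rows for 18 genes, of which 14 were tested for each genotype comparison and 16 for the regional comparison and the interaction, and 0 passed an adjusted p of 0.05 in any of the 4 by edgeR. At an unadjusted p under 0.05 there were 1 gene in the hippocampus, 2 in the cortex, 6 between the regions and 1 for the interaction, beside 8.69%, 6.67%, 19.6% and 7.01% of all gene sums. Without the libraries labelled 5 × FAD 3, 0 passed in any of the 4 as well. The median log2 fold change of the list between the regions was -0.29, beside 0.00 for all gene sums. The following genes are those with the smallest p. Crem, which encodes repressors of CREB-driven transcription that activity itself induces, was at 12.5 ± 1.01 CPM in the WT hippocampus and 4.32 ± 1.01 in the 5 × FAD hippocampus (SD, n = 3). Its log2 fold change there was -1.51 (SE 0.29, adjusted p = 0.388, edgeR), and DESeq2 called it with an adjusted p of 0.0369. Without 5 × FAD 3 it was -1.53 (SE 0.32, adjusted p = 0.216, edgeR). Its interaction was -2.27 (SE 0.62, adjusted p = 0.647, edgeR). Tiparp and the kinase gene Plk3 followed in the hippocampus, at 0.90 (SE 0.42) and 1.34 (SE 0.85), the latter 0.76 without WT replicate 3. In the cortex, Dusp1, a phosphatase that switches off MAP kinases, was at 136 ± 28.9 CPM in WT and 84.5 ± 21.2 in 5 × FAD mice (SD, n = 3). Its log2 fold change was -0.68 (SE 0.24, adjusted p = 0.728, edgeR). Gadd45b, at -1.57 (SE 0.61), and the MAP kinase phosphatase gene Dusp6, at -0.59 (SE 0.34) and -0.30 without 5 × FAD replicate 2, were next. Between the regions the smallest p values were those of Rgs2, a regulator of G-protein signalling, at -0.95 (SE 0.26, adjusted p = 0.0544, edgeR), of the zinc finger factor Klf6 at -0.92 (SE 0.28, adjusted p = 0.0811) and of Arf4 at 2.51 (SE 0.79, adjusted p = 0.0911), which DESeq2 called with an adjusted p of 0.0131 and which fell to a log2 fold change of 1.60 without replicate 3 of the 5 × FAD hippocampus. For the interaction, Gadd45g (2.56, SE 1.28) and Arf4 (-2.40, SE 1.59) followed Crem. Single libraries moved these 2 values. Gadd45g was at 5.13 without replicate 1 of the WT hippocampus. Arf4 was at -1.50 without that library and at -4.18 without replicate 3 of the 5 × FAD hippocampus. Some values of this list rested on levels near or below the floor of detection. Arf4 averaged 0.589 CPM in the WT cortex and Gadd45g 0.784 CPM in the WT hippocampus. The lowest library was at 0.226 CPM for Plk3 in the hippocampus and at 0.266 CPM for Gadd45b in the cortex.

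The regulators that act upstream of immediate early genes, namely CREB, SRF and MEF2 factors with their coactivators and the calcium-dependent and MAP kinases and phosphatases, had rows for 33 of 44 genes, and 32 were tested. Between the regions 6 of them passed, 2 higher and 4 lower in the hippocampus, which is 6 of 32 beside the 6.86% of all gene sums. Mef2c, a factor that restrains synapse number in response to activity, was lower in the hippocampus, at 97.8 to 214 CPM with a median of 112 against 205 to 395 CPM with a median of 274 in the cortex (log2 fold change -1.11, SE 0.20, adjusted p = 0.00658, edgeR). Camkk2, a kinase that activates CaM kinases, was lower by -0.64 (SE 0.12, adjusted p = 0.0103), and its regions did not overlap, at no more than 69.7 CPM in the hippocampus and no less than 73.3 in the cortex. Camk1 at -0.71 (SE 0.18, adjusted p = 0.0352) and Camk2d at -0.65 (SE 0.16, adjusted p = 0.0361) were lower as well. Camk2b, a subunit of the CaM kinase of the synapse, was higher in the hippocampus by 0.86 (SE 0.22, adjusted p = 0.0388), and Ppp3ca, the catalytic subunit of calcineurin, by 0.68 (SE 0.18, adjusted p = 0.0428). Mef2c and Camkk2 passed in 18 of 19 alternative settings, the exception being the 5 × FAD libraries alone. Camk2b passed in 5 of these settings, Ppp3ca in 6, Camk1 in 8 and Camk2d in 9, and leaving out single libraries ended each of these 4 calls. Without both libraries labelled 5 × FAD 3, Camk2b and Camk1 no longer passed, with adjusted p values of 0.0625 and 0.109 from edgeR.

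In the genotype comparisons and the interaction, 0 of the 32 regulators passed by edgeR, with 4 in the hippocampus, 4 in the cortex and 2 for the interaction at an unadjusted p under 0.05, beside 8.69%, 6.67% and 7.01% of all gene sums. Without the libraries labelled 5 × FAD 3, 0 passed in these 3 comparisons too. Those with the smallest p in the hippocampus were the SRF partner Elk1 (-0.98, SE 0.28), the kinase gene Rps6ka5 (-0.80, SE 0.26) and the CREB coactivator gene Crtc3 (0.46, SE 0.17), each with an adjusted p of at least 0.526. In the cortex they were Rps6ka5 (0.66, SE 0.22), Crtc1 (-0.81, SE 0.32) and the calcineurin subunit gene Ppp3r1 (0.63, SE 0.25), each with an adjusted p of at least 0.725. Crtc1 was at -0.52 (SE 0.31) without WT replicate 1. Rps6ka5, whose kinase phosphorylates CREB and histone H3, had 150.0 ± 39.4 CPM in the WT and 85.4 ± 18.1 in the 5 × FAD hippocampus, and 128 ± 35.4 in the WT and 202 ± 21.1 in the 5 × FAD cortex (SD, n = 3). Its interaction was -1.49 (SE 0.36, adjusted p = 0.647, edgeR), that of Elk1 was -1.06 (SE 0.39) and that of Prkacb was -0.47 (SE 0.24). Without 5 × FAD 3, Rps6ka5 was at -0.66 (SE 0.27) in the hippocampus and 0.57 (SE 0.26) in the cortex.

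The third list held receptors, processing enzymes and adaptors of BDNF, for which 12 of 18 genes had a row and 10 were tested. Shc3 and Shc1, adaptors that link the BDNF receptor TrkB to RAS, were lower in the hippocampus, and 0 of the list were higher, which makes 2 of 10 called beside 6.86% of all gene sums. Shc3 lay at 150 to 275 CPM in the hippocampus and 349 to 519 CPM in the cortex (log2 fold change -0.82, SE 0.16, adjusted p = 0.0104, edgeR). Shc1 lay at 7.60 to 9.07 CPM in the hippocampus and 11.3 to 21.6 CPM in the cortex (-0.75, SE 0.17, adjusted p = 0.023, edgeR). The regions did not overlap for either gene. Shc3 passed in 17 of 19 alternatives and Shc1 in 11, and neither passed within a genotype alone. Without both libraries labelled 5 × FAD 3 they were at -0.89 and -0.88, with adjusted p values of 0.00972 and 0.0146 from edgeR, and Pcsk2 passed as well. By edgeR, 0 of the 10 passed in the other 3 comparisons, with 1 in the cortex and 0 in the hippocampus and for the interaction at an unadjusted p under 0.05, beside the shares of all gene sums given above. The smallest p values were those of Frs3 (1.08, SE 0.81), Pcsk2 (-0.25, SE 0.20) and Shc3 (-0.20, SE 0.24) in the hippocampus, of Plcg1 (-2.20, SE 0.91), Frs3 (1.15, SE 0.75) and Shc1 (0.42, SE 0.28) in the cortex, and of Pcsk2 (-0.39, SE 0.24), Plcg1 (2.33, SE 1.73) and Shc1 (-0.44, SE 0.35) for the interaction. Plcg1 varied widely between libraries, from 29.5 to 584 CPM. Leaving out 1 library moved several of these values by more than 1.5 times. In the cortex Plcg1 was at -0.26 without WT replicate 2, Shc1 at 0.17 without 5 × FAD replicate 1 and Frs3 at -0.29 without 5 × FAD replicate 3. In the hippocampus without 5 × FAD replicate 3, Frs3 was at -0.46, Pcsk2 at -0.43 and Shc3 at -0.42, and without 5 × FAD replicate 1 Pcsk2 was at -0.15 and Shc3 at 0.01. The interaction of Plcg1 was 4.08 without replicate 2 of the WT hippocampus, 0.41 without replicate 2 of the WT cortex and -0.03 without replicate 3 of the 5 × FAD hippocampus. That of Shc1 was -0.18 without replicate 1 of the 5 × FAD cortex.

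**Figure D5:**
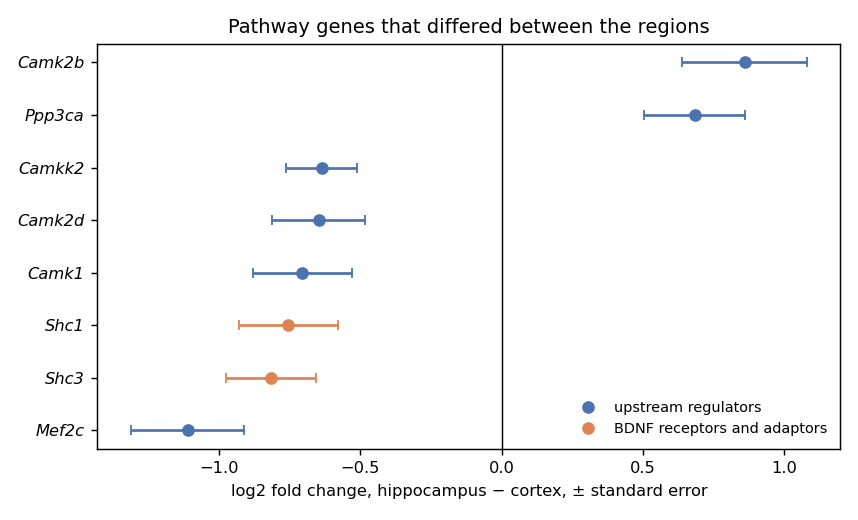
Log2 fold change between hippocampus and cortex (x axis, positive where the hippocampus is higher) with 1 standard error for the 8 genes of the lists of upstream regulators (blue) and BDNF receptors and adaptors (orange) that passed an adjusted p of 0.05. Camk2b and Ppp3ca are at 0.86 and 0.68, and the other 6 lie between -1.11 and -0.64.

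Other transcripts within 50 kb of the 10 genes accounted for 46 rows. Of these, 18 were tested in the hippocampus, 19 in the cortex and 24 each between the regions and for the interaction, and 0 passed an adjusted p of 0.05 by edgeR, with 1, 1, 3 and 3 at an unadjusted p under 0.05, beside 7.58%, 5.34%, 14.3% and 6.89% of all rows. Gm45346, an antisense transcript that overlaps the 5′ end of Bdnf on chromosome 2 from 109670908 to 109676591 on the minus strand, had 96 counts in all and 4 to 14 in each library. BB557941, 3476 bp upstream of Nr4a2 on the same strand, had 11, 23 and 24 counts in the WT hippocampus and 2, 13 and 0 in the 5 × FAD hippocampus, with 4, 4 and 9 in the WT cortex and 6, 4 and 0 in the 5 × FAD cortex. The log2 fold change of BB557941 between the genotypes in the hippocampus was -1.80 (SE 0.96, adjusted p = 0.694, edgeR). Both were singled out for their position near a member, although some rows lay closer than BB557941. Among these were a row of Prdx2, 173 bp from Junb, and Gm20638, 607 bp from Bdnf.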

How the data were processed

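RNA from both brain regions was depleted of ribosomal RNA and made into stranded paired-end libraries, 12 in all. The deposited table of long non-coding RNAs holds raw counts per transcript, which the authors made after trimming with Trimmomatic 0.36. The submitters' processing notes also name edgeR. The aligner, the counting program and the genome build are not given in the sources used here. Of the 45597 Ensembl rows, 225 had no match in GENCODE M21, whose GRCm38 coordinates are used for matched rows, and the 2436 assembled rows have no coordinates. Rows were tested singly and summed to 22103 gene sums.

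The counts were filtered with filterByExpr, scaled by TMM and tested with edgeR 4.0.16 (glmQLFit and glmQLFTest, R 4.3.3) with Benjamini-Hochberg adjustment over all features at 0.05. Each genotype comparison used the 6 libraries of its region, and the regional comparison and the interaction used all 12. The SE is the absolute log2 fold change divided by the square root of F. The fits were tested on simulated data. The alternatives were DESeq2 1.42.0, its size factors, no filter, a replicate block, other sets of libraries and each library left out. The members, the gene lists and the alternatives were chosen with earlier results of these data known. Named genes were all members, and of each list up to 5 called genes per direction with the smallest p or, with none called, the 3 with the smallest p. Libraries held 3517967 to 5014389 counts, and the floor of 3 counts covers counting error only. The deviations of same-numbered libraries had correlations of 0.259 between the regions of 5 × FAD 3 and of -0.0416 to 0.0908 between the regions of the other numbers. Same-numbered WT and 5 × FAD libraries of a region, which are separate mice, had -0.0756 to 0.0172. The labels do not say whether a number is the same mouse in both regions, and numbers were not used as pairs. The regional and interaction p-values therefore treat all 12 libraries as independent. A further marker gene and a further sequence stretch were left out and are not reported here. Proteins of the members and the transcripts of the 6 members without a row were not used here.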

Additional observations from a re-analysis of the deposited data

How the results depend on the processing

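Of 449 recomputed log2 fold changes of members, 431 kept their direction and side of the threshold, 5 passed it, and 13 reversed, each on leaving out 1 library. The cause of a changed call was not tested. Over the libraries left out, the reversed values ranged in the hippocampus genotype comparison from -1.14 to 0.25 (Fos ENSMUST00000140525), -0.27 to 0.55 (Fosb ENSMUST00000208230), -1.58 to 0.057 (Nr4a2 ENSMUST00000140165), -0.25 to 0.58 (Fosb sum) and -1.46 to 0.019 (Nr4a2 sum). They ranged between the regions from -0.64 to 0.056 (Fos ENSMUST00000140525), and for the interaction from -0.96 to 0.42 (Fos ENSMUST00000140525) and -0.89 to 0.78 (Nr4a2 ENSMUST00000128776). Of listed genes that are no members, Frs3 ranged from -0.46 to 1.54 in the hippocampus and -0.29 to 1.58 in the cortex, Shc3 from -0.42 to 0.0084 in the hippocampus, and the interaction of Plcg1 from -0.026 to 4.08, with -0.24 without both libraries labelled 5 × FAD 3.

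Main counts of called rows were 4 in the hippocampus, 12 in the cortex, 628 between the regions and 2 for the interaction, and of gene sums 6, 2, 830 and 0. DESeq2 called 127, 102, 1378 and 108 rows, and 83, 53 and 21 gene sums in the hippocampus, in the cortex and for the interaction. Without the filter 6 cortex rows passed, and the screen held 1646 and 1314 rows and 653 and 520 gene sums. In the fit of all 12 libraries the genotype comparisons called 2 and 3 rows and 3 and 7 sums. The replicate block pairs same-numbered libraries, a pairing that the labels do not give. This block called 0, 0, 205 and 0 rows, and 2, 0 and 483 gene sums in the hippocampus, in the cortex and between the regions. It changed no call of a member, and among listed genes the regional adjusted p became 0.112 for Camk2b and Camk2d and 0.085 for Shc1. The regional comparison called 217 rows and 399 sums in WT libraries only, and 4 and 22 in 5 × FAD libraries only. Without both libraries labelled 5 × FAD 3, a setting chosen after seeing the data, the interaction called 10 rows and 5 sums.

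Leaving out each library gave 0 to 39, 1 to 8, 377 to 847 and 0 to 7 rows, and 0 to 34, 1 to 18, 571 to 1057 and 0 to 4 gene sums, with 983 to 1587 and 783 to 876 rows and 386 to 645 and 350 to 406 sums in the screens. The Fos and Fosb correlation within groups ranged from 0.227 to 0.919, also under settings chosen after seeing the data. At 0 to 11 counts in the Junb row and 4 to 14 in Gm45346, depth limits what can be detected.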
